A study of Canis lupus familiaris with 6 samples.

Results

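The genes described here are 33 genes of the p53 response together with the inhibitors of cyclin-dependent kinases (CDKs). They were chosen by name, with earlier results of these data known. Of the 33, 27 were found among the gene names of the array, on 41 of its 43603 probes. One probe was read per gene, the brightest over the 6 arrays, with any other probe kept as a check. No probe carried the name CDKN1C, CDKN2A, PHLDA3, TIGAR, TRIAP1 or EDA2R, so these 6 genes were not analysed here.

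The samples came from MDCK-pTR GFP-RasV12 cells (hereafter RasV12 cells), a line made from Madin-Darby canine kidney (MDCK) epithelial cells of the dog, which expresses GFP-tagged oncogenic RasV12 when tetracycline is given. RasV12 cells were grown either alone (3 samples) or mixed with normal MDCK cells (3 samples). All 6 cultures were kept on collagen and received tetracycline for 24 h, and the GFP-positive cells were then sorted and their RNA hybridised to a 1-colour Agilent canine array, 1 array per sample. The control thus received tetracycline as well, and the cultures were set up to differ in neighbours, not in the oncogene. Only the mixed cultures held normal cells. Whether some of these passed the GFP sort, or whether RasV12 was expressed equally in both groups, was not tested. The labels give 10 normal cells per RasV12 cell for mixed replicates 1 and 3 and 100 for mixed replicate 2, whereas the protocol and the methods of the study give 10 for the mixed cultures. In the labels, the text on RNA extraction speaks of cells with a β-catenin mutant, whereas the titles and the other fields name RasV12 cells without it, and the latter is used here. No source used here says whether the 3 samples of a group came from separate experiments, so p-values measure the spread between these samples.

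p53 is a transcription factor that is held low by the ubiquitin ligase MDM2 and its partner MDM4 and is released by DNA damage, oncogene activity and other stresses. Its best known targets stop the cell cycle, above all CDKN1A (p21), which binds and inhibits cyclin-CDK complexes. Other targets repair DNA, change metabolism, promote death, or feed back on p53 itself. CDKN1B (p27) is of the same family as p21, whereas CDKN2B (p15) is of the INK4 family, which binds CDK4 and CDK6 and is known for its induction by TGF-β. Oncogenic Ras is known to act on both kinds of inhibitor in many cells.

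Of the 27 measured genes, 5 (18.5%) were called different between mixed culture and culture alone, against 11.2% of all tested probes. The calls were made at an adjusted p under 0.05 by limma's moderated test. Their count fell to 0 when certain single arrays were left out. CDKN2B and BTG2 were higher in RasV12 cells from mixed culture, and CDKN1A, PLK3 and RRAD were lower. The probes that carry these results are printed here 5′ to 3′ with their positions on canFam3, both as the array files give them. The files do not say in which exon or UTR a probe lies. The 3 probes of CDKN1A are shown first because they did not move alike. They lie on the plus strand at chr12:5755048-5755107, chr12:5754761-5754820 and chr12:5752055-5752114, so that the middle one begins 287 bases and the upstream one 2993 bases before the start of the brightest. For each of them 30 of 60 bases are printed, bases 20 to 49 for the brightest and bases 1 to 30 for the others. Capitals mark AATAAA, the usual polyadenylation signal, which was searched on the probe strand and is held by 8.67% of the 43603 probes.
CDKN1A, brightest probe: cagcaggtgctcAATAAAtatttcttagta
CDKN1A, middle probe: acaaggagtcagatgttttaagatagcaga
CDKN1A, upstream probe: ggaccacctggacctgtcgctgacctgcac

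The other called genes are shown with their whole probes of 60 bases, since each rests on 1 probe or on 1 place. The CDKN2B probe maps to the minus strand at chr11:41261460-41264216, a span of 2757 bases for a 60-base probe. The BTG2 probes lie on the plus strand at chr38:72917-72976 and chr38:72915-72974. They share 58 positions and differ at 1 of them, in capitals, T11C as counted from the 5′ end of the brighter probe. They are therefore readings of 1 place in the transcript, not of separate places. The PLK3 probe lies on the minus strand at chr15:15520259-15520318 and the RRAD probe on the plus strand at chr5:82395142-82395201.
CDKN2B: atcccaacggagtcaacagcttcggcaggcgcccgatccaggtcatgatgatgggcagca
BTG2, brighter probe: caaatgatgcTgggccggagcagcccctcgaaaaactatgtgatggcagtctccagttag
BTG2, other probe: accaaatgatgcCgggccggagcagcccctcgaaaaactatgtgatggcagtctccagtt
PLK3: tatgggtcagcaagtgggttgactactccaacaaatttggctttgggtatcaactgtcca
RRAD: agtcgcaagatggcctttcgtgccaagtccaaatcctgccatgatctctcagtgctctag

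All values below are scaled levels, that is log2 of the processed intensity of a probe minus the 75th percentile of its array (592 to 699.6 units of intensity), so that 0 is the level of that percentile. Differences are mixed minus alone on this log2 scale. They were tested with limma's moderated test over 26534 probes (two-sided, Benjamini-Hochberg adjustment, threshold 0.05). Across all of these probes 11.2% passed the threshold, 5.5% as higher and 5.72% as lower in mixed culture, and the groups did not overlap for 37.2%. By limma's test 8343 of the 26534 probes had an unadjusted p under 0.05, as had 10 of the 27 genes. Unadjusted counts of the reported fit below are to be read beside these. On each array 60.8% to 66.4% of probes were well above background, and the 27 genes were so on all 6 arrays. The 3 arrays of culture alone shared 1 slide and the 3 mixed arrays another. By the file headers the groups also differed in scan date, each group having 1. An effect of the slide or the scan and one of the culture therefore cannot be told apart. Alone replicate 1 stood apart from the other arrays of its group, being the one nearest to the mixed mean for 63.5% of the 2977 called probes with a value on all 6 arrays, and for 5 of the 5 called genes here. Precision is limited by having 3 arrays per group.

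The 5 called genes of 27 make 18.5%, against 11.2% of all probes, with 2 higher and 3 lower. Since the genes were chosen with earlier results of these data known, the shares given here describe the list and do not test it. In 12 of the 27 genes, 7 higher and 5 lower, no array of one group reached into the range of the other, which is 44.4% against 37.2%. The median difference of the 27 genes was 0.012 (log2) and the median of its size 0.20, against -0.004 and 0.17 over all tested probes. Neither direction prevailed among the 27 genes. With scaling to the spike-in controls in place of the 75th percentile, which lowers every difference by 0.16, the median of the 27 genes was -0.15.

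**Figure D1:**
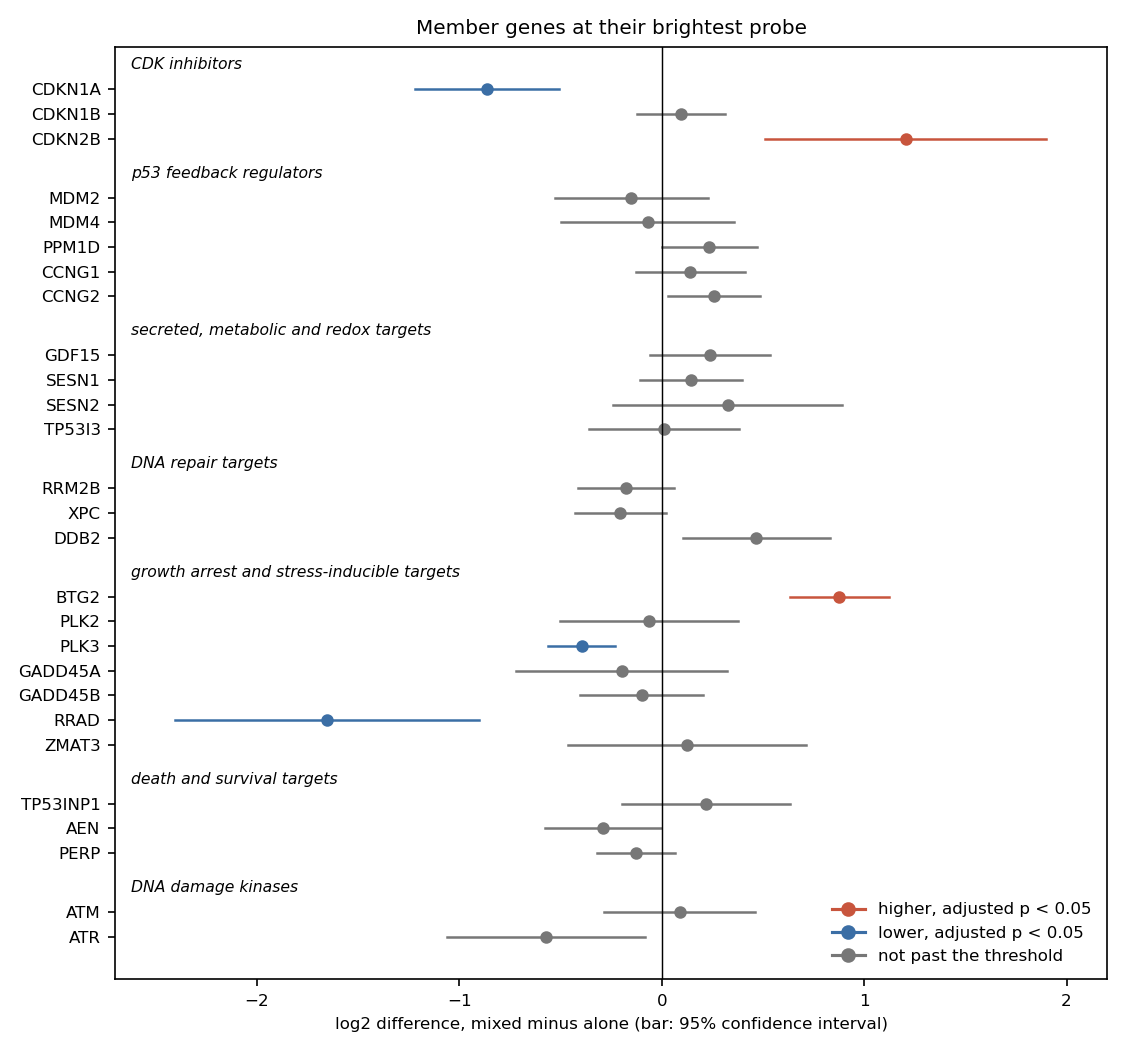
Log2 difference, mixed minus alone, of the 27 measured genes at their brightest probe, ordered by role. Points are the fitted differences and bars their 95% confidence intervals. CDKN2B (1.21) and BTG2 (0.88) lie above 0 and CDKN1A (-0.86), PLK3 (-0.40) and RRAD (-1.65) below it, while the intervals of most others reach across 0.

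Among the CDK inhibitors, CDKN1A fell and CDKN2B rose in mixed culture, and CDKN1B did not pass the test. CDKN1A, the main cell cycle inhibitor downstream of p53, was at 6.74, 7.30 and 7.15 on the arrays of culture alone and at 6.28, 6.21 and 6.11 on the mixed arrays. Every mixed array lay below every array of culture alone, with a gap of 0.46 between the nearest arrays. The difference was -0.86 (SE 0.15, 95% confidence interval -1.22 to -0.51, adjusted p = 0.0233), a level 1.82-fold lower. As RNA was taken from sorted cells in bulk, fewer cells that express a gene and less RNA of it per cell cannot be told apart in any of these results.

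The probes of CDKN1A gave unequal changes. The middle probe, at 5.85, 6.59 and 6.55 alone and 5.67, 5.42 and 5.46 mixed, differed by -0.81 (SE 0.20, adjusted p = 0.0518), just outside the threshold. The upstream probe was at 2.55, 2.79 and 2.50 alone and 2.42, 2.47 and 2.42 mixed, which does not overlap but is a smaller difference of -0.17 (SE 0.096, adjusted p = 0.264). Within each array, the log2 ratio of the brightest to the upstream probe was 4.19, 4.50 and 4.65 alone and 3.85, 3.73 and 3.69 mixed. This ratio, which restates the unequal differences above, was lower by 0.69 on average on the mixed arrays. An exact permutation test over 3 arrays against 3 cannot give a p under 0.1, so the inequality of the probes is a description. The ratio of the brightest to the middle probe was 0.73 ± 0.14 alone and 0.68 ± 0.090 mixed (SD, n = 3). The call for CDKN1A thus rests on the brightest probe, the most downstream of the 3.

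CDKN2B, the INK4 inhibitor of CDK4 and CDK6, was at 2.07, 1.15 and 1.12 alone and at 3.04, 2.46 and 2.46 mixed. The groups did not overlap, but alone replicate 1 lay well above the other arrays of its group. The difference was 1.21 (SE 0.29, interval 0.51 to 1.90, adjusted p = 0.0465), a level 2.31-fold higher, and it was the only rise of more than 2-fold among the 27 genes. Without alone replicate 1 it was 1.52 (adjusted p = 0.00861), and it missed the threshold when any other array was left out or when the spike-in controls set the scale.

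CDKN1B, known to restrain CDK2, was at 4.32, 4.08 and 4.10 alone and at 4.32, 4.27 and 4.19 mixed. At this brightest probe the groups overlapped, and the difference of 0.095 (interval -0.12 to 0.31, adjusted p = 0.519) missed the threshold. Its brightest probe is annotated to chromosome X, whereas the other 3 lie on chromosome 27, and these gave differences of 0.13 to 0.32 with adjusted p from 0.111 to 0.407. At those with differences of 0.25 and 0.32 every mixed array was higher, by gaps of 0.062 and 0.008 between the nearest arrays. Whether the brightest probe reads the same transcript as the others was not tested. With the spike-in scale the brightest probe turned to -0.066. No call was thus made for p27 from any of its 4 probes.

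**Figure D2:**
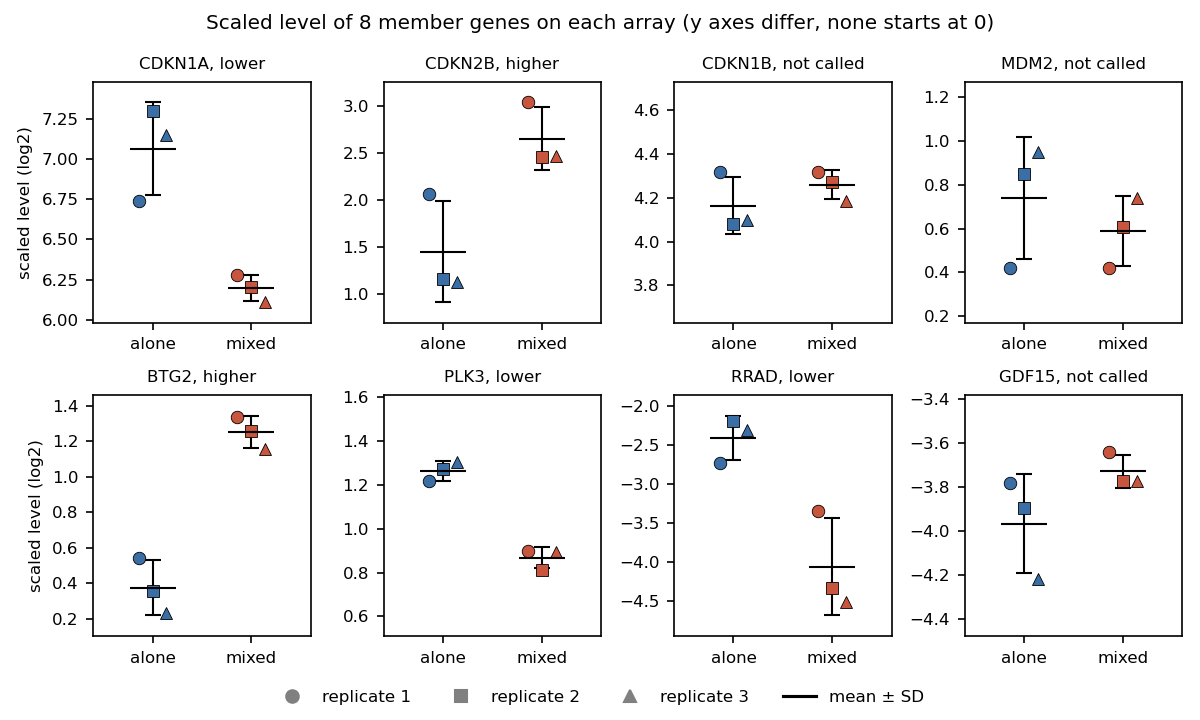
Scaled level (log2) of 8 genes at their brightest probe on each array. Circles, squares and triangles mark replicates 1, 2 and 3, and bars the mean and SD of 3 arrays. Blue marks culture alone and red mixed culture. The groups stand apart for CDKN1A, CDKN2B, BTG2, PLK3 and RRAD and, by a narrow gap, for GDF15, and they overlap for CDKN1B and MDM2; the y axes differ between panels.

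Of the growth arrest and stress-inducible genes, BTG2 rose, PLK3 and RRAD fell, and 4 of the 7 did not pass the test. BTG2, an anti-proliferative protein that binds the CCR4-NOT deadenylase, was at 0.54, 0.35 and 0.23 alone and at 1.34, 1.26 and 1.16 mixed. Its groups were separated by 0.62, more than the range within either. The difference was 0.88 (SE 0.10, interval 0.63 to 1.12, adjusted p = 0.0135), or 1.84-fold higher, and its other probe at the same place gave 0.89 (adjusted p = 0.016).

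PLK3, a polo-like kinase that responds to stress, was at 1.22, 1.27 and 1.30 alone and at 0.90, 0.81 and 0.89 mixed. The arrays of each group lay close together, so that a small difference of -0.40 (SE 0.069, interval -0.56 to -0.23, adjusted p = 0.0237), a level 1.32-fold lower, passed the test. PLK2, a kinase of the same family, overlapped between the groups with a difference of -0.064 (adjusted p = 0.842).

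RRAD, a small GTPase of the RGK family that binds calcium channel subunits, was at -2.73, -2.19 and -2.31 alone and at -3.35, -4.33 and -4.51 mixed. All mixed arrays were lower, and mixed replicate 1 lay well above the other mixed arrays. The difference of -1.65 (SE 0.31, interval -2.40 to -0.90, adjusted p = 0.0276), 3.14-fold lower, was the largest of the 27 genes. With the replicate number as a block it was the same size and just missed the threshold (adjusted p = 0.0505). With normexp background correction, an offset of 50 and quantile normalization together the difference was -0.79, still called, and which of these choices reduced it was not tested. On the mixed arrays the intensity of this probe was 26.0 to 61.9 units, about the size of the offset.

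GADD45A, GADD45B and ZMAT3 overlapped between the groups. GADD45A, an inducible partner of stress kinases and PCNA, differed by -0.20 (interval -0.72 to 0.32), with mixed replicate 1 lowest at 3.49 and alone replicate 3 highest at 4.35. GADD45B differed by -0.099 and ZMAT3, an RNA-binding zinc finger protein, by 0.12, with adjusted p of 0.635 and 0.766.

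The genes grouped here as feedback regulators of p53, CCNG1 and CCNG2 included, did not pass the test. With limma 0 of 5 had an adjusted p under 0.05 and 2 of 5 an unadjusted one. Over all tested probes 8343 of 26534 had such an unadjusted p. MDM2, the ligase that p53 itself induces, was at 0.42, 0.85 and 0.95 alone and at 0.42, 0.61 and 0.74 mixed. The groups overlapped throughout, and the difference was -0.15 (interval -0.53 to 0.23, adjusted p = 0.557). MDM4 differed by -0.070 (interval -0.50 to 0.36), and its other probe by 0.036.

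PPM1D, the phosphatase Wip1 that turns off damage signalling, was at -1.02, -1.23 and -1.10 alone and at -1.01, -0.88 and -0.75 mixed. Its groups were just apart and its difference 0.24 (adjusted p = 0.158). CCNG2, a cyclin G linked to protein phosphatase 2A, was at -3.74, -3.75 and -3.82 alone and at -3.34, -3.63 and -3.57 mixed, all higher, with a difference of 0.26 (adjusted p = 0.121). CCNG1, the cyclin G that is a direct p53 target, gave 0.14 at its brightest probe and -0.14 and -0.17 at the others, so that its direction depends on the probe.

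The secreted, metabolic and redox targets all had differences above 0 at the 75th percentile scale, from 0.012 to 0.33, and 0 of 4 passed the test by limma, adjusted or unadjusted. GDF15, a secreted cytokine of cell stress, was at -3.78, -3.90 and -4.22 alone and at -3.64, -3.77 and -3.77 mixed. The mixed arrays were higher by a gap of only 0.01, and the difference was 0.24 (interval -0.059 to 0.54, adjusted p = 0.24). SESN1, a sestrin that links p53 to nutrient sensing, was at -2.45, -2.44 and -2.46 alone and at -2.42, -2.41 and -2.09 mixed, where mixed replicate 3 carried most of the difference of 0.14 (adjusted p = 0.396). Its other 3 probes were too dim to test. SESN2 differed by 0.33 (interval -0.24 to 0.89) and TP53I3, a quinone oxidoreductase, by 0.012 (interval -0.36 to 0.38). With the spike-in scale SESN1 and TP53I3 turned to -0.018 and -0.15.

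Of the DNA repair targets, 0 of 3 passed by limma, with 1 of 3 at an unadjusted p under 0.05. DDB2, which recognises ultraviolet lesions, was at -0.85, -1.25 and -1.42 alone and at -0.81, -0.68 and -0.63 mixed. All mixed arrays were higher, alone replicate 1 being close to them, and the difference was 0.47 (interval 0.10 to 0.83, adjusted p = 0.0942). XPC, which works in the same excision repair pathway, was at -1.43, -1.14 and -1.27 alone and at -1.45, -1.45 and -1.56 mixed, lower by a narrow gap, with a difference of -0.20 (adjusted p = 0.193). RRM2B, the p53-inducible ribonucleotide reductase subunit, differed by -0.18 (adjusted p = 0.275).

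Of the death and survival targets, 0 of 3 passed by limma, with 1 of 3 at an unadjusted p under 0.05. PERP, a membrane protein of desmosomes, was at 5.22, 5.02 and 5.06 alone and at 5.01, 4.92 and 4.98 mixed, apart by 0.002 between the nearest arrays, and its other probe gave 0.020 against -0.13. AEN, an apoptosis-enhancing nuclease, differed by -0.29 (adjusted p = 0.153) and TP53INP1 by 0.22 (adjusted p = 0.432). The damage kinases ATM and ATR, which act upstream of p53, differed by 0.090 (adjusted p = 0.731) and -0.57 (interval -1.06 to -0.081, adjusted p = 0.116).

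**Figure D3:**
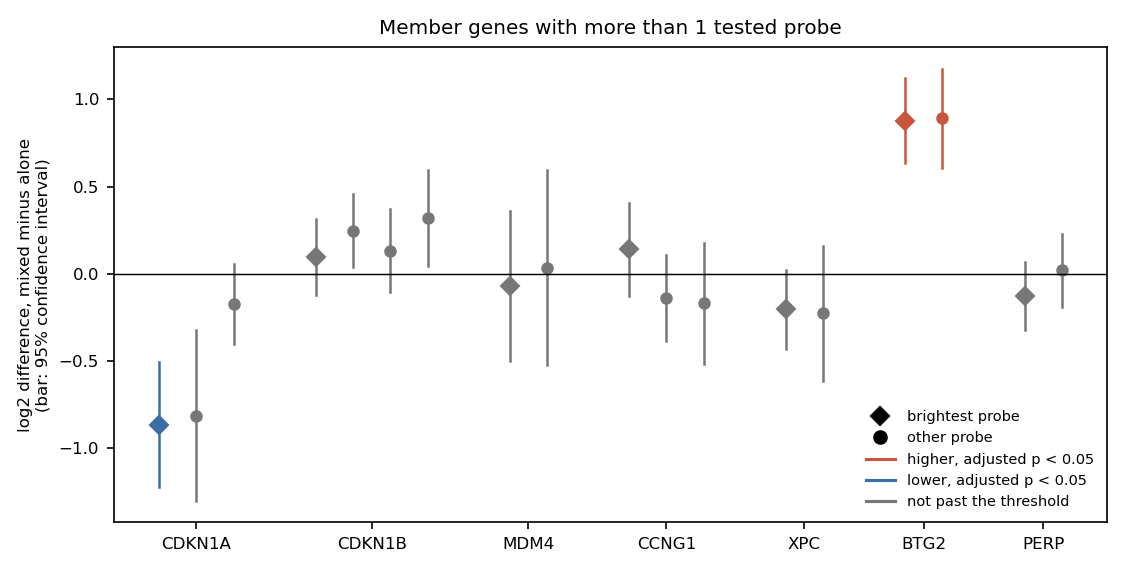
Log2 difference, mixed minus alone, with its 95% confidence interval for each tested probe of the 7 genes that have several, a diamond for the brightest probe and circles for the others from bright to dim. The BTG2 probes coincide at 0.88 and 0.89, whereas the CDKN1A probes run from -0.86 to -0.17 and the CCNG1 probes lie on both sides of 0.

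The count of called genes rested on the arrays used. Without alone replicate 1, 8 of the 27 passed the test, the 5 above together with DDB2 (0.63, adjusted p = 0.0109), AEN (-0.40, adjusted p = 0.0337) and ATR (-0.81, adjusted p = 0.00657). Without alone replicate 2, alone replicate 3, mixed replicate 2 or mixed replicate 3, 0 passed by limma's adjusted p and 5 to 6 had an unadjusted p under 0.05. Over all probes those 4 fits gave 7 to 24 calls. The fit without alone replicate 1 called 7335 of its 27757 tested probes, to be set beside the 8 of 27 genes. In the 15 alternatives run, each of the 5 called genes kept its direction. BTG2 was called in 10 of them, CDKN1A and PLK3 in 9, RRAD in 8 and CDKN2B in 6.

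**Figure D4:**
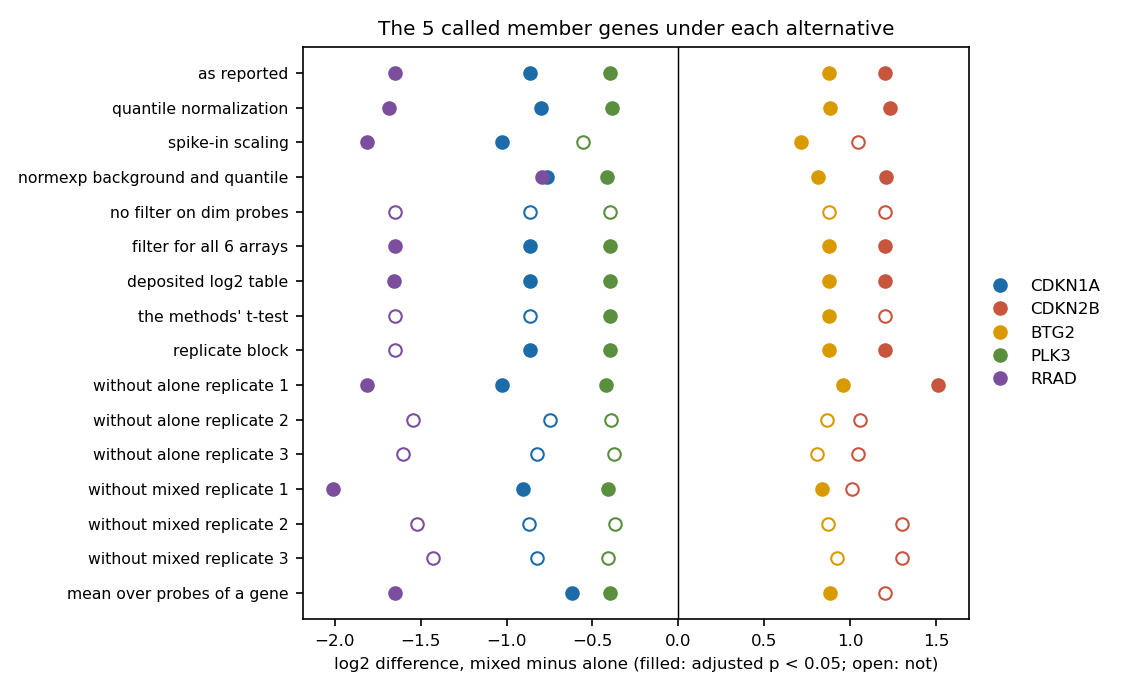
Log2 difference, mixed minus alone, of the 5 called genes in the reported fit and under 15 alternatives, filled where the adjusted p was under 0.05 and open where it was not. Each gene stays on its side of 0, with CDKN2B between 1.01 and 1.52 and RRAD between -2.01 and -0.79, while fewer or none of the 5 are called when certain arrays are left out.

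To set these genes in their pathway, 82 others were read in the same fit, of which 65 had a probe and 61 were tested. They too were chosen with earlier results of these data known, so their shares are a description. Of the 61, 8 (13.1%, against 11.2% of all probes) passed the test, 5 higher and 3 lower, with a median difference of 0.032. Of the list of p53 family and partners 2 of 10 passed the test. The acetyltransferase CREBBP, a coactivator of p53, was 0.65 higher (adjusted p = 0.042), and USP7, the deubiquitinase that stabilises MDM2 and p53, was 0.34 lower in mixed culture (difference -0.34, adjusted p = 0.0447).

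Of the further p53 targets 1 of 21 passed, the ubiquitin ligase subunit FBXW7 at -0.55 (adjusted p = 0.0482). The death genes gave -0.17 for BAX (adjusted p = 0.514), which permeabilises mitochondria, and -0.60 for the death receptor FAS (interval -1.18 to -0.026, adjusted p = 0.145). Without alone replicate 1 the difference of FAS was -0.89 (adjusted p = 0.00678). BBC3 (PUMA) had no probe by that name.

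CDK4 and CDK6, the kinases that p15 binds, overlapped between the groups and did not pass the test. CDK4 differed by -0.059 (interval -0.26 to 0.14) and CDK6 by -0.002 (interval -0.27 to 0.26). Among the CDKs, cyclins and RB proteins 4 of 18 passed the test. CCND1 (cyclin D1), their partner and a gene that Ras-MAPK signalling induces, was at 3.29, 3.67 and 3.65 alone and at 3.08, 2.85 and 2.91 mixed, a difference of -0.59 (adjusted p = 0.0366). CCNE2 (cyclin E2), the partner of CDK2, was at -1.67, -2.06 and -2.14 alone and at -1.13, -1.16 and -1.03 mixed, a difference of 0.85 (adjusted p = 0.0193). RB1, the target of these kinases, was higher by 0.47 (adjusted p = 0.0193) and CDKN3, a phosphatase that acts on CDKs, by 0.36 (adjusted p = 0.0413).

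In the DNA damage checkpoint list 1 of 12 passed, RAD50 of the MRN complex, which binds broken DNA ends, at 0.31 (adjusted p = 0.0336). With the replicate number as a block, USP7, FBXW7, CCND1, CDKN3 and RAD50 missed the threshold, with adjusted p from 0.0543 to 0.0728, and CREBBP, CCNE2 and RB1 kept their calls. The block brought 2 further genes past the threshold, named here after their values were seen, so that 5 of the 61 genes passed. These were TP73, a p53 family member (0.63, adjusted p = 0.0351), and SFN, the 14-3-3 sigma protein (-0.39, adjusted p = 0.0446). Over the 15 alternatives CCNE2 and RB1 were called in 9 and the other 6 genes in 4 to 6. CREBBP, USP7, CDKN3 and RAD50, each with several probes, missed the threshold with the mean over probes of a gene, as did FBXW7.

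**Figure D5:**
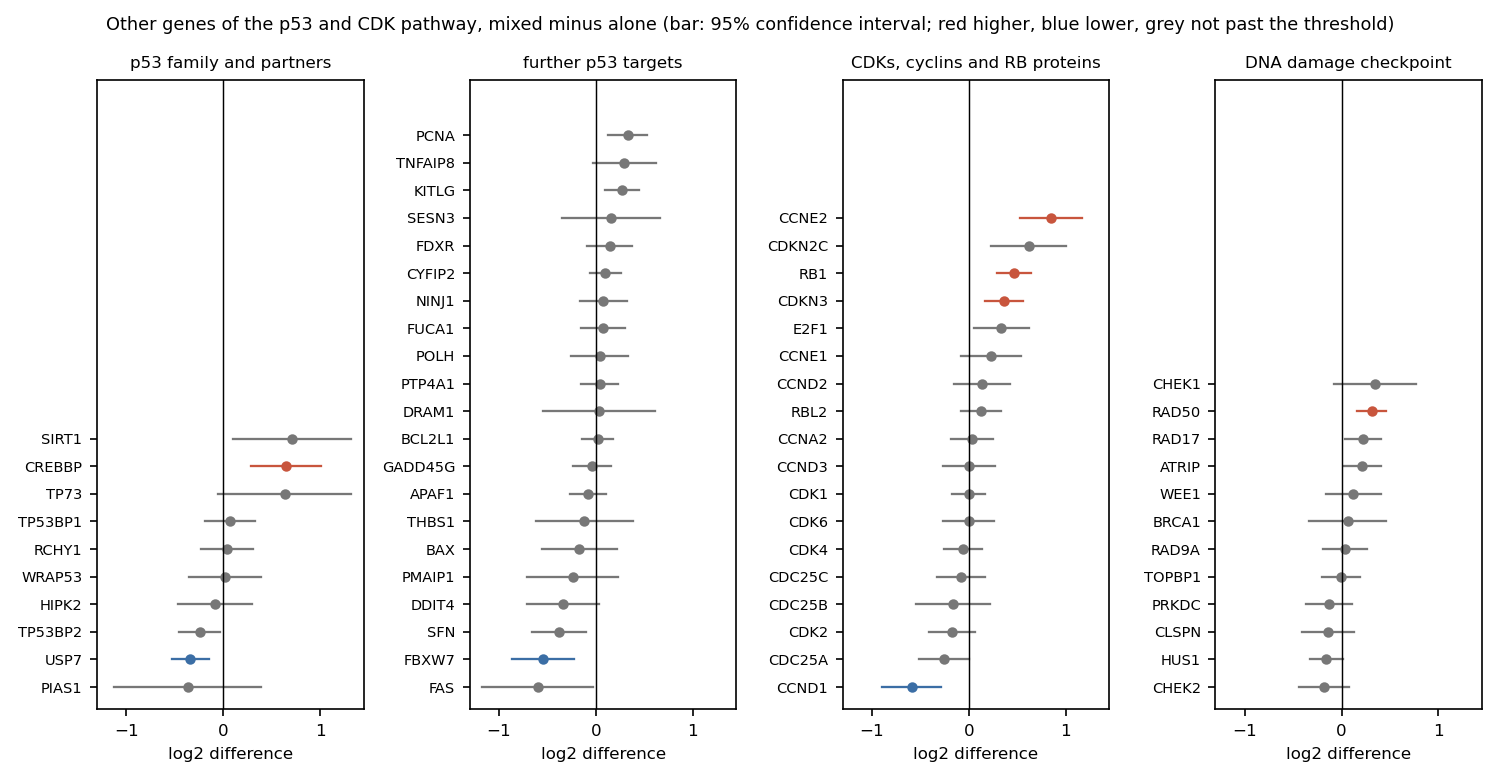
Log2 difference, mixed minus alone, with its 95% confidence interval for 61 other genes of the p53 and CDK pathway in 4 lists, sorted within each list. Red and blue points passed the test as higher (CCNE2, CREBBP, RB1, CDKN3 and RAD50) and lower (CCND1, FBXW7 and USP7), and grey points did not.

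Other measures moved between the same groups, where 11.2% of all tested probes passed the test. The lists of Ras-MAPK output and immediate early genes below share FOSL1, IER3 and MYC. FOSL1 (-0.52) is thus counted as a lower call in each of them. CCND1 is also counted among the pathway genes above. The summed level of 15 Ras-MAPK output genes, counted as multiples of the 75th percentile, was 135.1 to 139.6 alone and 110.2 to 125.4 mixed, and 4 of the 14 tested passed the test, 4 of them lower, CCND1 among them. DUSP6 alone made 63.9% to 69% of that sum and was not called (-0.19, adjusted p = 0.205), and without it the sum was 43.0 to 49.2 alone and 37.6 to 38.9 mixed. The sum of 18 immediate early genes was 172.3 to 187.1 alone and 226.4 to 250.4 mixed (7 of 18 called, 6 higher and 1 lower), of which FOS made 30.9% to 43.5%, and without FOS it was 114.6 to 122.7 alone and 136.0 to 146.2 mixed. The sum of 34 interferon-stimulated genes was 325.4 to 356.1 alone and 384.3 to 457.5 mixed (20 of 32 called, 20 higher). IRF9 made 43.2% to 72.5% of that sum and differed by -0.20 (adjusted p = 0.374), and without IRF9 it was 97.3 to 167.3 alone and 218.3 to 251.5 mixed. The part of these in the differences of CDKN1A, CDKN2B, BTG2, PLK3 and RRAD was not tested. The sum of 10 epithelial markers was 674.7 to 845.2 alone and 735.3 to 847.8 mixed, with 0 of 10 called by limma and 5 at an unadjusted p under 0.05, and all 10 were above background on every array. Of 12 fibroblast, blood and endothelial markers, summing to 6.61 to 8.87 alone and 7.31 to 9.07 mixed, 8 were well above background on all 6 arrays, among them VWF (2607 to 4487 units of intensity), COL1A2 (616.9 to 743.6) and PECAM1 (386.4 to 492.4). DES, TEK and PTPRC were not well above background on any array, and 0 of the 9 tested were called by limma, with 1 at an unadjusted p under 0.05.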

How the data were processed

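RNA of 6 samples, 3 of RasV12 cells alone and 3 from mixed culture, was measured on 1-colour Agilent canine arrays. Per the file headers, the authors' scanner output (Agilent Feature Extraction 10.10.1.1, probes placed on canFam3) holds a processed signal per spot, an intensity from which the software had removed background, with no scaling across arrays. The authors also deposited a table of log2 values for 26529 probes. It follows log2 of the processed signal minus the 75th percentile of each array. The median offset of an array was at most 0.001 in size, and probes deviated from it by at most 5e-04. The methods of the study name no normalization for the arrays.

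Spots flagged as outliers and control spots were dropped, replicate spots were averaged on the log2 scale, and the 75th percentile of each array was subtracted. Tests covered probes that every array of 1 group or of both had well above background. The groups were compared with lmFit and eBayes of limma 3.58.1 in R 4.3.3. Tests were two-sided, and p-values were adjusted by Benjamini-Hochberg over the 26534 tested probes. The procedure was also run on simulated data, drawn as independent normal values. These held no outlying array, slide effect or pairing, so that run says nothing about such features. Python 3.11.15 with pandas 2.3.3, numpy 2.4.6 and matplotlib 3.10.9 served for tables and plots. No spot was saturated, and lowest intensities called well above background were 9.16 to 14.6 units.

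The genes and the lists were chosen with earlier results of these data known. Values on every array are given for CDKN1A, MDM2, GDF15, CDKN1B and CDKN2B, for each called gene, and for up to 6 further genes with the largest difference among those whose groups do not overlap. Of the other pathway genes, CDK4, CDK6, CCND1, BAX, BBC3 and FAS and up to 5 called genes per direction are named. A few further pathway genes are not reported here.

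Both groups carry replicate numbers 1 to 3. After removal of the group means, same-numbered arrays correlated at 0.349, 0.162 and 0.296, all above 0.1, which is the bar set here for reading the numbers as pairs, although alone replicate 2 correlated more with mixed replicate 3 (0.238) than with mixed replicate 2. The number is also the position on the slide. Although the bar was met, the reported fit is unpaired, and the replicate block is an alternative to it. The calls that the block changed are given with the genes. Alternatives were a replicate block, quantile normalization, spike-in scaling, normexp background correction (offset 50) together with quantile normalization, the deposited log2 table, no filter or one that asks for all 6 arrays, the methods' t-test, a fold of at least 2, leaving out each array, the mean over probes of a gene and any probe of a gene.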

Additional observations from a re-analysis of the deposited data

How the results depend on the processing

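The replicate block (a paired fit) gave 4 of 27 genes (RRAD lost its call) and 5 of the 61 other pathway genes, and it changed no call among the 27 beyond RRAD. The deposited table, quantile normalization, the filter that asks for all 6 arrays, normexp with quantile normalization, the mean over probes and any probe of a gene gave 4 to 6 of the 27. Spike-in scaling gave 3 (1 higher, 2 lower; all probes 935 calls, 284 higher), the methods' t-test 2 after Benjamini-Hochberg adjustment and 6 before, a fold of at least 2 kept 2 (CDKN2B and RRAD), and no filter on dim probes gave 0 (7 at an unadjusted p under 0.05; 12 calls over all 43603 probes). Leaving out 1 array gave 0 to 8. For the other pathway genes the count of 8 became 1 with spike-in scaling, 13 with normexp and quantile, 3 with the mean over probes, 2 with the methods' t-test and 0 both with no filter (15 unadjusted) and at 2-fold, and 0 to 21 with 1 array left out. The median of the 27 genes moved from 0.012 to -0.15 with spike-in scaling. Neither slide nor scan date was run as a block, because each slide and each scan date holds a single group. Over 39 genes and 15 alternatives, 454 of 585 values kept their direction and their side of the threshold, 103 lost and 5 gained a call, and 23 turned, none of them called in the reported fit. With spike-in scaling CDKN1B became -0.066, CCNG1 -0.020, SESN1 -0.018, TP53I3 -0.15, ZMAT3 -0.037 and ATM -0.071. CCNG1 was -0.055 as the mean over probes and CDK6 0.010 with normexp and quantile. With 1 array left out the ranges were -0.26 to 0.040 for MDM4, -0.12 to 0.14 for TP53I3, -0.25 to 0.091 for PLK2, -0.34 to 0.049 for GADD45A, -0.16 to 0.28 for ZMAT3, -0.068 to 0.17 for ATM and -0.12 to 0.059 for CDK6. The cause of these changes was not tested.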
